A study of Mus musculus with 3 samples.

Results

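A set of 9 genes, 9 rows of a deposited table of 25638 gene names, encodes enzymes that add sialic acid, build selectin ligands or add the terminal sugars of gangliosides and N-glycans: St6gal1, St3gal1, St3gal4, St3gal6, Gcnt1, Fut7, B4galnt1, B4galnt4 and Chst2. All 9 rows were found. The genes were chosen by name with their levels in the same table already known, so their levels and ratios are descriptions, and nothing is tested. The data are RNA-seq read counts of CD8+ T cells in 3 libraries: 1 of effector memory cells, 1 of central memory cells and 1 of naive cells. The cells are labelled as sorted from the spleens of untreated wild-type (WT) mice. All 3 groups share the genotype WT and the treatment label Untreated, and the sources used here give no age, strain or number of mice for a library. Naive cells have not met antigen, central memory cells keep the means of entering lymph nodes, and effector memory cells patrol blood and tissues.

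Cell surface proteins and lipids of T cells carry sugar chains that often end in sialic acid. Selectins on vessel walls and platelets bind a short fucosylated and sialylated structure, sialyl Lewis X, when it sits on branched O-linked chains of proteins such as PSGL-1. Building it takes a branching enzyme (Gcnt1), sialyltransferases that act on carbon 3 of galactose (St3gal4 and St3gal6) and a final fucosyltransferase (Fut7). St3gal1 caps the unbranched O-linked chain and thereby competes with Gcnt1 for the same substrate, and St6gal1 puts sialic acid on carbon 6 of galactose instead. B4galnt1 and B4galnt4 add N-acetylgalactosamine, to gangliosides and to N-glycan ends. Chst2 adds the sulfate that some selectin ligands of lymph node vessels carry.

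Library totals were 33087462 counts for effector memory, 35846315 for central memory and 26876909 for naive. Levels are given as CPM (counts scaled by effective library size), and a count of 0 allowed up to 0.0938, 0.0837 and 0.108 CPM in these libraries (3 counts each). Each group has 1 library, so no difference has a replicate check. Every comparison is one between libraries, with a 95% exact (Clopper-Pearson) counting interval of the CPM ratio. These intervals and floors cover counting error only. Calls of higher or lower needed an interval without 1, a ratio of 2 or more, and 5 CPM in whichever library was higher. The calls follow a rule of size and are no test. The 5 markers of CD8+ T cells summed to 1885 CPM in effector memory, 3012 in central memory and 4081 in naive, and the 8 B cell markers to 3.16, 6.78 and 36.5 CPM. The 6 markers of NK cells, of which memory CD8+ T cells also express Eomes, summed to 95.1 CPM in effector memory, 144 in central memory and 39.1 in naive. Eomes alone stood at 79.9, 74.4 and 38.1 CPM in these libraries, most of the sum in effector memory and naive. The libraries also stood apart in the T cell receptor they carried. Trbv12-1 made up 98.4% of Trbv counts in effector memory (5007 of 5090, interval 97.98% to 98.7%). The share was 99.6% for central memory (23853 of 23937, interval 99.57% to 99.72%) and 7.13% for naive (1107 of 15526, interval 6.73% to 7.55%). Subset and receptor use therefore cannot be told apart in the memory against naive comparisons. The shared labels WT and Untreated do not account for this difference in receptor use, and its source was not tested. In these bulk libraries fewer cells with a transcript and less transcript per cell cannot be told apart either.

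The start regions of the 4 genes with the widest spread of levels are shown, since these genes carry the differences described next. Each window is 300 bases of RefSeq sequence on GRCm38.p6, the assembly that the mm10 build named in the submitters' processing notes is made from, running from 250 bases before to 50 bases after a listed start, on the gene's own strand. Where a gene has several listed starts, the one nearest the GENCODE M21 start is shown. Capitals mark GC boxes.
Gcnt1, chr19:17372795-17373094, minus strand: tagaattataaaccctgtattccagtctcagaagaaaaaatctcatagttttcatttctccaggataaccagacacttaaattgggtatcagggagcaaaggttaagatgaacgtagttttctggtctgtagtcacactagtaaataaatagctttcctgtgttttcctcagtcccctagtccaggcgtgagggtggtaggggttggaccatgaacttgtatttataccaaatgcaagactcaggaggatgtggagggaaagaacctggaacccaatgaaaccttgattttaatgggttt
Fut7, chr2:25422992-25423291, plus strand: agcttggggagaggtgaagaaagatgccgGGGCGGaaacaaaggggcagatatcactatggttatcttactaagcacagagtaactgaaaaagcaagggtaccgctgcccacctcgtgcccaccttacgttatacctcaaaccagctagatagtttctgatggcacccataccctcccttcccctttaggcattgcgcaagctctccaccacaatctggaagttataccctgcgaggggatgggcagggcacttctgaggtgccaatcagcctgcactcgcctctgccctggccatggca
B4galnt4, chr7:141060728-141061027, plus strand: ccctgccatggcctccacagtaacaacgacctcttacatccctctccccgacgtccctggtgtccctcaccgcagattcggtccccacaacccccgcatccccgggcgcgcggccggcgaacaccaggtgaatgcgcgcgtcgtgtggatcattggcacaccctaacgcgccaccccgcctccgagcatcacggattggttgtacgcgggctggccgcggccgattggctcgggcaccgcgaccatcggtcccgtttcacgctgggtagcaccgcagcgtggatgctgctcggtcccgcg
Chst2, chr9:95407221-95407520, minus strand: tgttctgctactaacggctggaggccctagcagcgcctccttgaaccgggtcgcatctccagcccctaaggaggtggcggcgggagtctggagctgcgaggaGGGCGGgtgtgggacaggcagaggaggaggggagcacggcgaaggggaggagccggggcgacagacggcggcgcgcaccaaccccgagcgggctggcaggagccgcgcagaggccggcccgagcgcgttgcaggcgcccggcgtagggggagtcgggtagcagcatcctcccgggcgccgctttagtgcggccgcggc
The Gcnt1 window shown was AT-rich, with 40.7% GC and 2 CpG dinucleotides. Windows at its other listed starts had 58.7% GC with 16 CpG and 52% GC with 3 CpG, and which start these cells use was not tested. The Fut7 window had 54% GC and 8 CpG, whereas those of B4galnt4 (68% GC, 37 CpG) and Chst2 (73% GC, 34 CpG) were rich in both.

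RefSeq start windows were found for 7 of the 9 genes, 13 in all. The motifs searched, on both strands, were the GC box GGGCGG, an AP-1 site TGANTCA, a STAT site TTCNNNGAA and a T-box core GGTGTGA, the kind of sequence that T-bet and Eomes bind. A GC box was found in 1 of 2 Fut7 windows, the Chst2 window, 1 of 3 St6gal1 windows, the St3gal4 window and 1 of 2 St3gal6 windows. Of all 32851 windows of this length, 35.7% hold a GC box. The AP-1 letters occurred in 1 St6gal1 window, against 7.81% of all windows. Neither the T-box letters (3.98% of all windows) nor the STAT letters (8.3%) occurred in any of the 13 windows.

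Of the 9 genes, 5 were highest in effector memory (St6gal1, St3gal4, Gcnt1, Fut7 and B4galnt4), 3 in central memory (St3gal6, B4galnt1 and Chst2) and 1 in naive (St3gal1). In the main scaling the counting intervals of all 27 ratios between libraries excluded 1, so no neighbours in these orders were within counting error. The spread between replicates is unknown. For B4galnt1 the log2 ratio of central memory over naive was 0.13, but 0.02 with DESeq2 size factors and 0.00 with upper quartile factors. Under those 2 scalings it was within counting error.

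**Figure D1:**
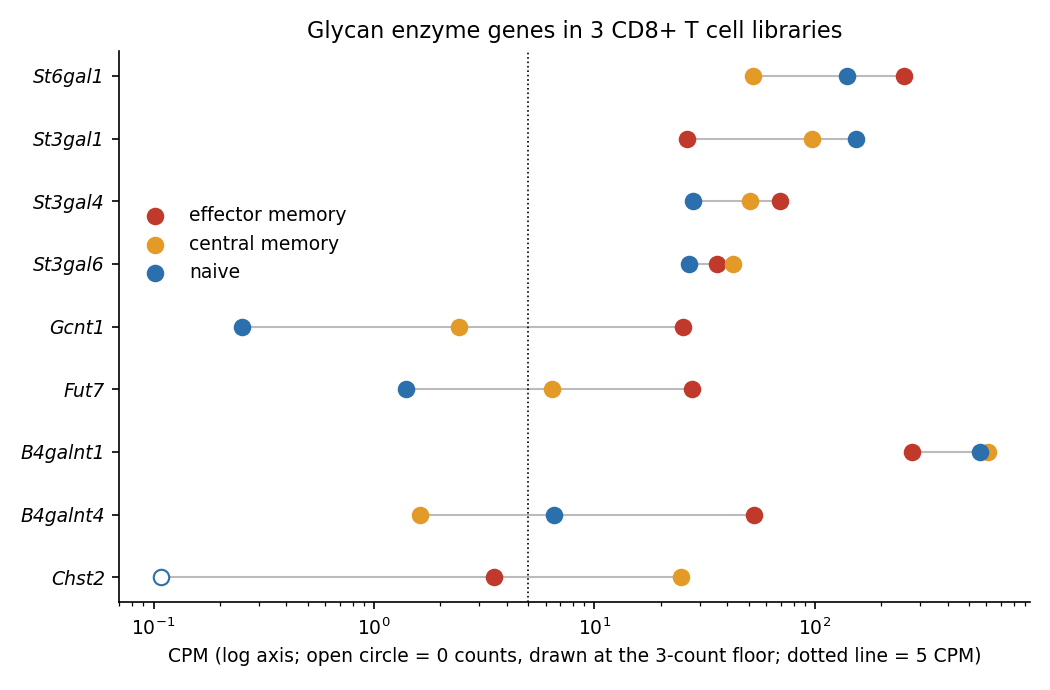
Level of each of the 9 enzyme genes, in CPM on a log axis, with 1 circle per library (effector memory red, central memory orange, naive blue). Gcnt1, Fut7 and B4galnt4 span from 1.62 CPM or less to 25.1 CPM or more, and the naive Chst2 circle is open because that library had 0 counts.

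The branching and fucosylating enzymes of selectin ligands were higher in both memory libraries than in naive, most of all in effector memory. Gcnt1, which starts the core 2 branch of O-linked chains (ENSMUSG00000038843.18, chromosome 19, 17326141 to 17372844, GENCODE M21 on GRCm38), had 804 counts in effector memory, 87 in central memory and 7 in naive, or 25.1, 2.43 and 0.252 CPM. It was high in effector memory alone and near the floor in naive. Its level was 99.9-fold higher in effector memory than in naive (interval 48.3 to 249) and 10.4-fold higher in effector memory than in central memory (interval 8.29 to 13.1). Central memory stood 9.65-fold above naive (interval 4.49 to 24.7), a ratio that was not called because neither library reached 5 CPM. Fut7, the fucosyltransferase that finishes sialyl Lewis X (ENSMUSG00000036587.13, chromosome 2, 25423267 to 25426374), followed the same order with smaller steps. It had 883 counts in effector memory, 229 in central memory and 39 in naive, or 27.6, 6.39 and 1.40 CPM. The effector memory level was 19.7-fold that of naive (interval 14.3 to 27.9) and 4.32-fold that of central memory (interval 3.73 to 5.02), and central memory was 4.56-fold above naive (interval 3.24 to 6.58). On the log2 scale the steps of Fut7 were nearly equal, 2.19 for central memory over naive and 2.11 for effector memory over central memory.

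St3gal4 and St3gal6, which add the sialic acid of sialyl Lewis X, varied less than Gcnt1 and Fut7. St3gal4 (ENSMUSG00000032038.7, chromosome 9, 35046576 to 35119268) had 2219 counts in effector memory, 1820 in central memory and 778 in naive, or 69.4, 50.8 and 28.0 CPM. Both memory libraries were above naive, by 2.48-fold in effector memory (interval 2.29 to 2.70), which was called, and by 1.82-fold in central memory (interval 1.67 to 1.98), which was below the ratio of 2. St3gal4 also shares 14.1% of its exon bases with 4930581F22Rik on the opposite strand, a name with no row in the deposited table, so its counts cannot be given. St3gal6 (ENSMUSG00000022747.17, chromosome 16, 58468125 to 58524243) had 1144, 1520 and 743 counts in effector memory, central memory and naive, or 35.8, 42.4 and 26.7 CPM. It was called in no comparison, with ratios of 1.34 for effector memory over naive and 1.59 for central memory over naive. St3gal6 shares 25.97% of its exon bases with Dcbld2 on the opposite strand, which had 220, 65 and 6 counts in these libraries. The sources used here do not say whether counting used strand, so reads from the shared bases cannot be told apart.

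St3gal1 had the reverse order. This enzyme, which caps the unbranched O-linked chain (ENSMUSG00000013846.10, chromosome 15, 67102875 to 67176830), had 844 counts in effector memory, 3476 in central memory and 4271 in naive, or 26.4, 97.0 and 153 CPM. Effector memory was the low library, 5.82-fold below naive (interval 5.40 to 6.27) and 3.68-fold below central memory (interval 3.41 to 3.97). Central memory was 1.58-fold below naive (interval 1.51 to 1.65), which was not called. Since St3gal1 and Gcnt1 act on the same chain, their levels per length were set side by side within each library, in CPM per kilobase of merged exons. In effector memory Gcnt1 stood at 4.36 and St3gal1 at 3.85 CPM per kilobase, a ratio of 1.13 (interval 1.03 to 1.25). In central memory the values were 0.422 and 14.2, a ratio of 0.0298 (interval 0.0238 to 0.0368), and in naive 0.0437 and 22.4, a ratio of 0.00195 (interval 0.000783 to 0.00402). The ratio was thus near 1 in effector memory and far below it in the other libraries, and its intervals did not overlap between libraries.

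St6gal1, which sialylates lactosamine ends of N-glycans and makes ligands of the B cell lectin CD22, had its lowest level in central memory. The gene (ENSMUSG00000022885.16, chromosome 16, 23224740 to 23360350) had 8146 counts in effector memory, 1885 in central memory and 3884 in naive, or 255, 52.6 and 139.6 CPM. Central memory was 2.65-fold below naive (interval 2.51 to 2.80), and effector memory was 4.84-fold above central memory (interval 4.604 to 5.09). Effector memory also stood 1.82-fold above naive (interval 1.76 to 1.90), short of the ratio of 2. B cells express St6gal1, and the summed B cell markers were 3.16 CPM in effector memory, 6.78 in central memory and 36.5 in naive. Ms4a1, Pax5 and Blk had 0 counts in effector memory, the library with the highest St6gal1. The part of B cell RNA in the naive level of St6gal1 was not tested. BC106179, a noncoding gene on the opposite strand that covers 4.07% of the exon bases, had 0, 86 and 260 counts.

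**Figure D2:**
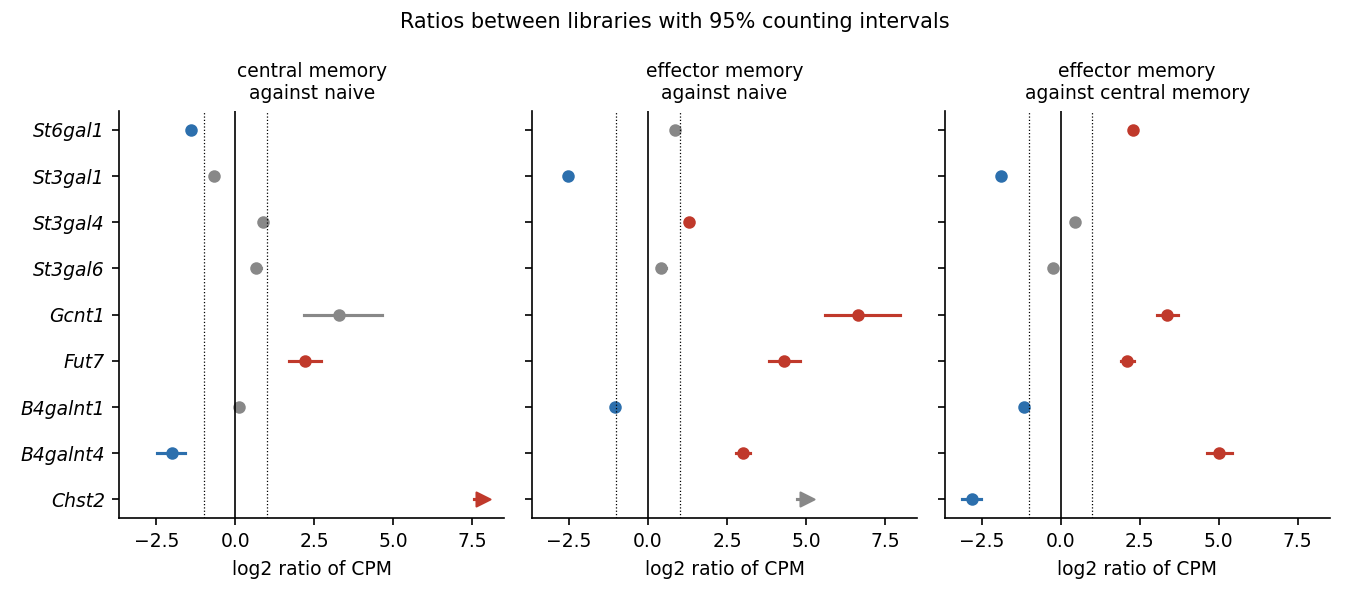
Log2 ratio of CPM for each enzyme gene in the 3 comparisons, with 95% counting intervals (many narrower than the points). Red marks genes called higher, blue genes called lower and grey genes not called, dotted lines mark a ratio of 2 either way, and arrowheads mark Chst2 against the naive floor of 3 counts. Gcnt1, Fut7 and B4galnt4 lie right of the line in both panels with effector memory on top, while St3gal1 and B4galnt1 lie left of it.

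The pair of N-acetylgalactosaminyltransferases differed in level and in order. B4galnt1, which makes the gangliosides GM2 and GD2 (ENSMUSG00000006731.10, chromosome 10, 127165225 to 127172330), was the most abundant of the 9 genes per length in every library, at 79.6 CPM per kilobase in effector memory, 177 in central memory and 162 in naive. Its counts were 8789, 21924 and 15596, or 275, 612 and 560.5 CPM. Effector memory was the low library, 2.04-fold below naive (interval 1.99 to 2.09) and 2.23-fold below central memory (interval 2.17 to 2.28), so the call against naive sits at the limit of the rule. Central memory and naive differed by a ratio of 1.09 (interval 1.07 to 1.11). B4galnt1 shares 20.7% of its exon bases with Slc26a10 on the opposite strand, which had 223, 210 and 461 counts.

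B4galnt4, an enzyme that forms the LacdiNAc ends of N-glycans (ENSMUSG00000055629.5, chromosome 7, 141061104 to 141072400), had 1684 counts in effector memory, 58 in central memory and 182 in naive, or 52.7, 1.62 and 6.54 CPM. It was low in central memory and high in effector memory. Its level in effector memory was 32.5-fold that of central memory (interval 25.03 to 43.0) and 8.05-fold that of naive (interval 6.91 to 9.43), and central memory was 4.04-fold below naive (interval 2.99 to 5.53). Of 10226 genes with 5 CPM in any library, 5 were called lower in central memory than in naive and higher in effector memory than in naive, a share of 0.0489%. Besides B4galnt4 these were Acsl3, Gtf2ird1, H2-Ab1 and Neb, a list looked at after the values were seen. The B4galnt1 to B4galnt4 ratio per length was 5.82 in effector memory (interval 5.52 to 6.14), 422 in central memory (interval 326 to 555) and 95.6 in naive (interval 82.6 to 111).

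Chst2, a sulfotransferase of 6-sulfated selectin ligands (ENSMUSG00000033350.7, chromosome 9, 95399292 to 95406722), had its highest level in central memory. Its counts were 112 in effector memory, 885 in central memory and 0 in naive, or 3.50, 24.7 and 0 CPM. Central memory was 229-fold higher than naive with the naive library set at 3 counts, and the counting interval of this comparison started at 186. Effector memory was at least 32.5-fold above naive on the same floor, which was not called because it stayed below 5 CPM, and 7.05-fold below central memory (interval 5.79 to 8.67). Unlike Chst2, the NK cell marker Ncr1 had counts in central memory alone, at 0, 12.2 and 0 CPM in effector memory, central memory and naive. Klrb1c was highest in central memory, at 1.91, 33.0 and 0.216 CPM. Klre1, at 2.03, 11.7 and 0.0719 CPM, and Tyrobp, at 0.813, 5.02 and 0.395 CPM, were likewise highest in central memory. Eomes, at 79.9, 74.4 and 38.1 CPM, and Fcer1g, at 10.4, 7.96 and 0.288 CPM, were not highest in central memory. All 6 NK cell markers reached 5 CPM in central memory, 2 in effector memory and 1 in naive, and their part in the level of Chst2 was not tested.

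Counted by comparison, the 9 genes were called in both directions each time. In central memory against naive 2 were called higher, Fut7 and Chst2, and 2 lower, St6gal1 and B4galnt4, while 4 passed in no direction and Gcnt1 was below 5 CPM. Of all 9737 genes at that level, 11.2% were called higher and 5.12% lower. In effector memory against naive 4 were called higher, Gcnt1, Fut7, B4galnt4 and St3gal4, and 2 lower, St3gal1 and B4galnt1, beside 22.3% and 15.6% of 10087 genes. In effector memory against central memory 4 were called higher, B4galnt4, Gcnt1, St6gal1 and Fut7, and 3 lower, Chst2, St3gal1 and B4galnt1, beside 14.8% and 12.8% of 9975 genes. The median log2 ratio was 0.40 over the 8 of the 9 genes at 5 CPM in central memory against naive, where that of all genes was 0.14. It was 1.09 in effector memory against naive (8 genes; all genes 0.06) and 0.45 in effector memory against central memory (9 genes; all genes -0.06). The genes were chosen with these ratios known, so the counts describe them and nothing is read from their excess. The comparisons also share libraries with one another.

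**Figure D3:**
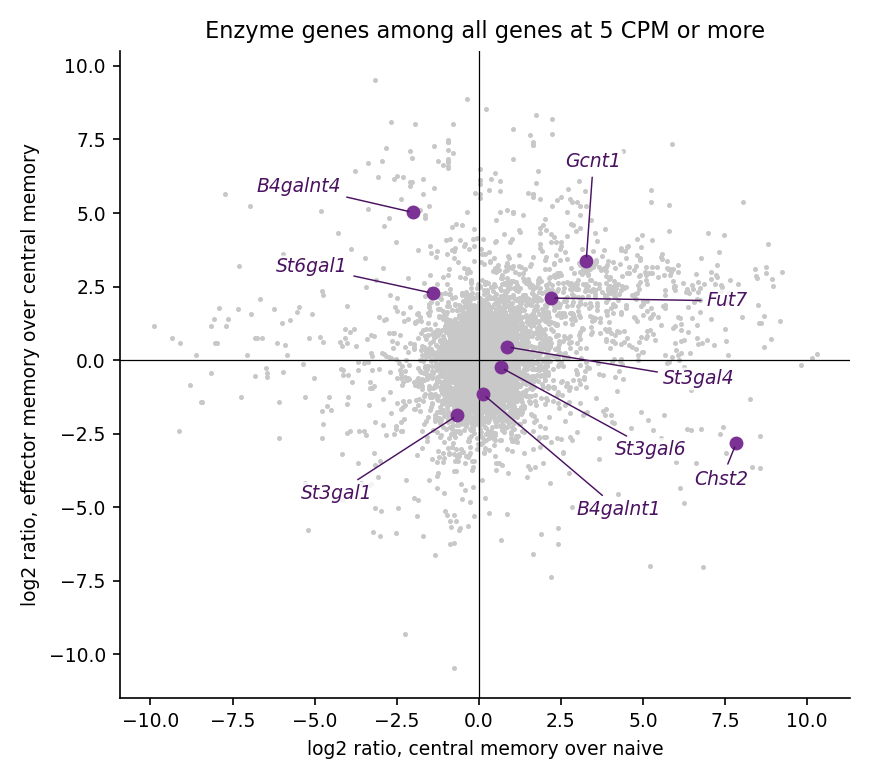
Log2 ratio of central memory over naive (x axis) and of effector memory over central memory (y axis) for genes with 5 CPM or more in any library (grey), with the 9 enzyme genes in purple. Ratios against a library at 0 counts are drawn at the 3-count floor, and genes at 0 in both libraries of a ratio are not drawn. Chst2 sits far right at 7.84 and -2.82, B4galnt4 upper left at -2.01 and 5.02, and St3gal6 near the centre.

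Genes with the most similar pattern were found as the shortest distance in this plane, over 3 libraries, among 7888 named genes with 20 CPM in a library and a count in each. B4galnt4 had 1 gene and St6gal1 had 4 genes within 0.5 log2 units. The nearest to B4galnt4 was Neb, at a distance of 0.38 and with 298 CPM in effector memory, 9.66 in central memory and 30.1 in naive, followed by H2-Ab1 and Acsl3 at 1.61 and 1.68. Genes with 0 counts in naive, as Chst2 has, were outside this search. Of the genes in it the nearest to Chst2, placed at its naive floor, was Samd3, at 0.44 and with 9.07 CPM in effector memory, 80.0 in central memory and 0.431 in naive, followed by Itgax and Ccl5. For St6gal1 they were Mtss1 at 0.11, with 60.5, 12.3 and 35.1 CPM, then mt-Nd1 and Gbp11. Gcnt1 had 9 genes within that distance, the nearest being Slc43a3, Myo10 and Rad54b, and Fut7 had 28, led by Nsl1, Kif22 and Eif4ebp1. The others lay in crowded parts of the plane. St3gal1 had 85 such genes, led by Cyth3, Plekho1 and Itpr2, St3gal4 had 595, led by Asl, Snapc2 and Slc35b2, B4galnt1 had 809, led by Letm1, D11Wsu47e and Gpatch2, and St3gal6 had 1152, led by Zbtb5, Rab1b and Arid5a.

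The make-up of the sialyltransferase transcripts differed between the libraries. The 20 sialyltransferase genes of the table summed to 106 CPM per kilobase in effector memory, 78.0 in central memory and 97.2 in naive. St6gal1 held 48.7% of this sum in effector memory, 13.7% in central memory and 29.2% in naive. As a share of raw counts it held 49.1% (8146 of 16574, interval 48.4% to 49.9%), 11.2% (1885 of 16859, interval 10.7% to 11.7%) and 22.0% (3884 of 17691, interval 21.3% to 22.6%). St3gal1 held 3.62%, 18.2% and 23.0% of the sum per length in effector memory, central memory and naive. St3gal4 held 22.3% in both memory libraries and 9.84% in naive, so it was the leading sialyltransferase per length of central memory, where St6gal1 led in effector memory and naive. Without division by length St3gal1 led in central memory, with 20.6% of counts, and St8sia1 in naive, with 25.8%. St3gal6 stayed between 4.45% in naive and 8.81% in central memory. Per length, the ratio of St6gal1 to St3gal1 was 13.5 in effector memory (interval 12.5 to 14.5), 0.756 in central memory (interval 0.714 to 0.800) and 1.27 in naive (interval 1.21 to 1.32). Without division by length it was 9.65, 0.542 and 0.909, so the order of the pair in naive turned.

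**Figure D4:**
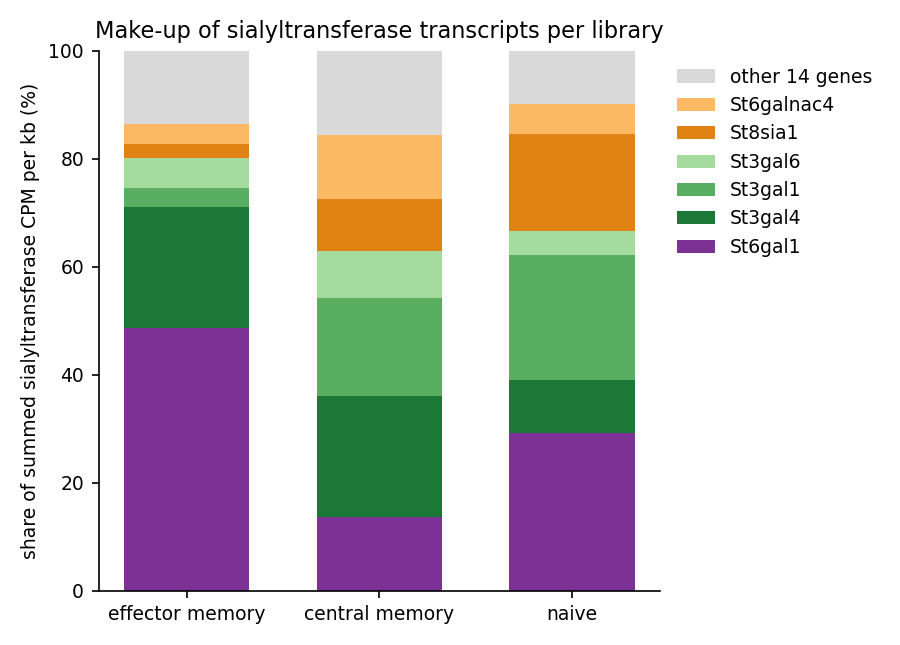
Share of each sialyltransferase gene in the summed CPM per kilobase of 20 such genes, as stacked bars per library. St6gal1 takes 48.7% of effector memory, 13.7% of central memory and 29.2% of naive, and St8sia1 takes 2.73%, 9.55% and 18.1%.

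Outside the 9 genes, St8sia1, which makes the ganglioside GD3, had the largest fold among sialyltransferases called lower in effector memory against naive. It stood at 27.1 CPM in effector memory, 69.6 in central memory and 164 in naive, 6.04-fold lower in effector memory than in naive (interval 5.62 to 6.51) and 2.36-fold lower in central memory than in naive. Of the 20 sialyltransferases 10 were at 5 CPM, and in effector memory against naive 3 were called higher and 3 lower. Besides St3gal4, St3gal1 and St8sia1 these were St6galnac6, 8.05-fold higher, St3gal2, 4.87-fold higher, and St8sia4, which makes polysialic acid, 2.33-fold lower. Between central memory and naive, 1 was called higher in central memory, St6galnac6 by 5.44-fold, and 2 lower, St6gal1 and St8sia1. Between the memory libraries, 2 were called higher in effector memory, St6gal1 and St3gal2 (3.17-fold), and 4 lower, among them St6galnac4 by 2.47-fold. Of all genes, 22.3% were called higher and 15.6% lower in effector memory against naive. The shares were 11.2% and 5.12% in central memory against naive, and 14.8% and 12.8% in effector memory against central memory. The same shares of all genes stand beside the counts of every list below. St3gal5, which makes the GM3 that precedes the gangliosides of B4galnt1, was below 5 CPM throughout, with 96 counts in effector memory, 36 in central memory and 0 in naive.

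Of 11 genes for the supply and removal of sialic acid that reached 5 CPM, 5 were called lower and 2 higher in effector memory against naive (median log2 ratio -0.34). Of all genes 15.6% were called lower and 22.3% higher in this comparison. Cmah, which turns the sialic acid Neu5Ac into Neu5Gc, stood at 105 CPM in effector memory, 349 in central memory and 796 in naive. It was 7.62-fold lower in effector memory than in naive (interval 7.35 to 7.90) and 2.28-fold lower in central memory than in naive, where it was the only one of 10 genes called. Casd1, a sialic acid acetyltransferase, was 2.84-fold lower and the sialidase Neu1 2.51-fold lower in effector memory than in naive, while Nans, the Neu5Ac phosphate synthase, was 2.83-fold higher and Renbp, the renin-binding protein that is an epimerase of amino sugars, 7.83-fold higher. Between the memory libraries, 2 were higher in effector memory (Renbp and the sialidase Neu3) and 3 lower (Cmah, the lysosomal exporter Slc17a5 and Neu1), with a median of -0.67.

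Enzymes of the Galnt family, which start O-linked chains, differed in both directions. Galnt3 had 1424 counts in effector memory, 324 in central memory and 0 in naive. With naive set at 3 counts, it was 413-fold higher in effector memory than in naive and 83.9-fold higher in central memory than in naive. These are ratios to the floor, not lower limits. Galnt10 had the reverse order at 18.4, 47.0 and 175 CPM, 9.51-fold lower in effector memory than in naive (interval 8.73 to 10.4) and 3.72-fold lower in central memory than in naive. The wider list of O-glycan core synthesis, which also holds Gcnt1, had 13 genes at 5 CPM in effector memory against naive. Of these, 4 were called higher (Galnt3, Gcnt1, Gcnt2 and B3gnt3) and 3 lower (Galnt10, Galnt4 and Galnt6), with a median log2 ratio of -0.04. Gcnt2, another branching enzyme, was 14.3-fold higher. Of all genes 22.3% were called higher and 15.6% lower in this comparison. Central memory had 1 of 11 genes of this list higher and 2 lower than naive (median -0.21), with Galnt6 2.73-fold lower. Effector memory against central memory had 4 of 13 higher and 1 lower (median 0.39), with Gcnt2 13.6-fold and Galnt3 4.92-fold higher and Galnt10 2.55-fold lower. C1galt1, which makes the core 1 chain that St3gal1 and Gcnt1 both use, was called in no comparison, at 109 CPM in effector memory, 64.1 in central memory and 117 in naive.

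The fucosylation list had 15 genes in the table, of which 4 of 11 at 5 CPM were higher and none lower in effector memory against naive (median log2 ratio 0.23), again 4 of 11 in effector memory against central memory (median 0.26), and 1 of 10, Fut7, in central memory against naive (median 0.10). Of all genes 22.3%, 14.8% and 11.2% were called higher in these comparisons and 15.6%, 12.8% and 5.12% lower. Fut4, the other fucosyltransferase able to make Lewis X structures in leukocytes, had 445 counts in effector memory, 22 in central memory and 2 in naive, and was 194-fold higher in effector memory than in naive (interval 53.3 to 1604). Per length, Fut7 stood above Fut4 in every library, by 3.43-fold in effector memory (interval 3.06 to 3.86), 18.0-fold in central memory (interval 11.6 to 29.3) and 33.7-fold in naive (interval 8.73 to 288, on 2 Fut4 counts). Fut8, which fucosylates the N-glycan core, was 5.62-fold higher and Gmds, which makes GDP-fucose, 5.36-fold higher in effector memory than in naive.

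Sulfation genes were called in both directions. Of all genes 11.2% were higher and 5.12% lower in central memory against naive, and 22.3% and 15.6% in effector memory against naive. Between central memory and naive, 3 of 12 passed upward and 1 downward in central memory (median log2 ratio -0.09), with the chondroitin sulfotransferases Chst11 and Chst12 at 3.34-fold and 3.04-fold higher and Chst15 2.80-fold lower. Effector memory had 3 of 12 higher and 3 lower than naive (median -0.03), with Chst12 5.34-fold higher, Chst15 6.72-fold lower and Chst10 3.36-fold lower. Between the memory libraries, 1 of 13 was higher in effector memory, Chst14, and 3 lower, Chst2, Chst10 and Chst15 (median -0.20). Papss1, which makes the sulfate donor, was called in no comparison, at 27.9 CPM in effector memory, 38.7 in central memory and 25.6 in naive.

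**Figure D5:**
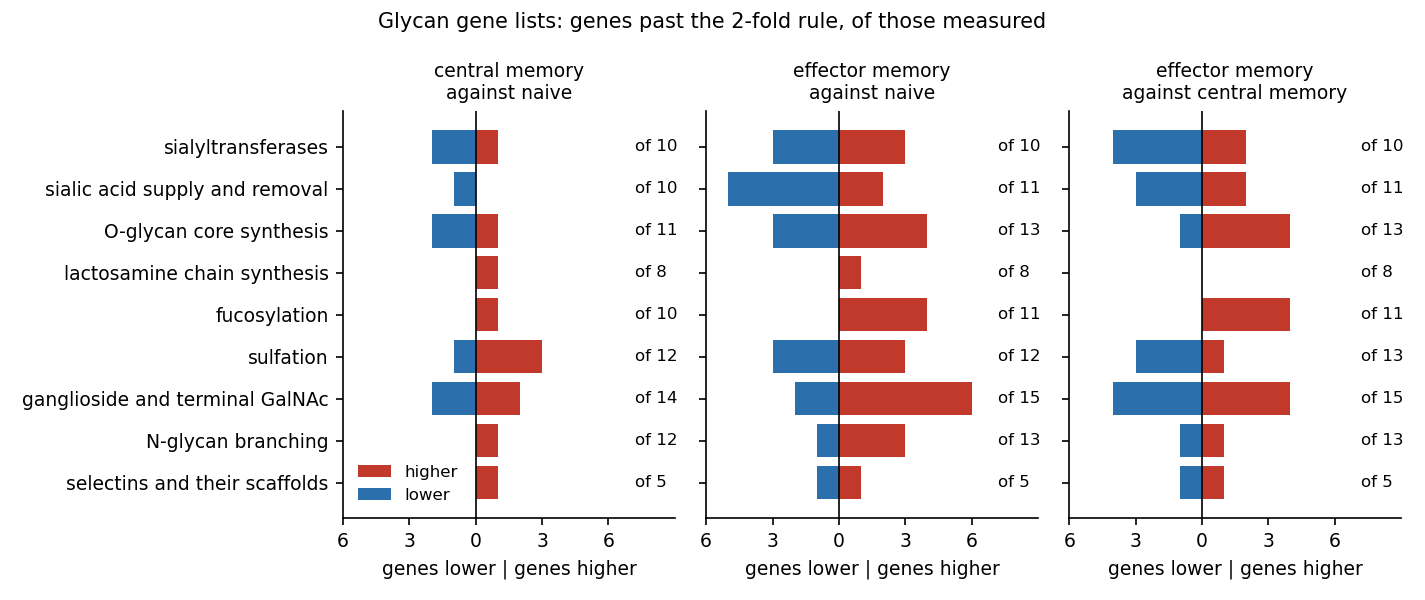
Number of genes called higher (red, right) and lower (blue, left) in each glycan gene list and comparison, with the number at 5 CPM or more in either library at the right of each row. Fucosylation has 4 genes higher of 11 and none lower in both comparisons with effector memory on top, and sialyltransferases have 3 higher and 3 lower of 10 in effector memory against naive. Lists share some genes.

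The ganglioside list, which holds B4galnt1 and B4galnt4, had 6 of 15 genes called higher and 2 lower in effector memory against naive (median log2 ratio 0.71). Of all genes 22.3% were called higher and 15.6% lower in this comparison. Gm2a, the activator protein that lets GM2 be broken down, was 2.73-fold higher, at 252 CPM in effector memory, 101 in central memory and 92.4 in naive, and B4galt5, a lactosylceramide synthase, was 3.28-fold higher. Central memory had 2 of 14 higher and 2 lower than naive (median 0.28). Effector memory had 4 of 15 higher and 4 lower than central memory (median 0.20), with B4galnt2 5.31-fold higher and B3galt4 2.78-fold lower. Of 8 lactosamine chain genes, B4galt5 was the 1 called against naive in either memory library (medians -0.26 for effector memory and 0.01 for central memory), and 0 were called between the memory libraries (median -0.12). B4galt1, which builds the lactosamine on which Fut7 and St6gal1 act, stood at 169 CPM in effector memory, 225 in central memory and 214 in naive. Of N-glycan branching genes 3 of 13 were higher and 1 lower in effector memory against naive (median -0.07). Mgat3, which adds the bisecting sugar, had 1069 counts in effector memory, 55 in central memory and 0 in naive. With naive set at 3 counts, it was 310.0-fold higher in effector memory than in naive, a ratio to the floor and not a lower limit. It was 21.8-fold higher in effector memory than in central memory (interval 16.6 to 29.1). Mgat4b was 2.83-fold higher in central memory than in naive, the 1 gene of 12 called there (median 0.05), and Man1a 2.08-fold lower in effector memory than in central memory, where 1 of 13 was higher and 1 lower (median -0.11).

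Of the protein scaffolds that carry selectin ligands, PSGL-1 and CD43 differed by less than 2-fold between libraries in transcript level. Selplg, which encodes PSGL-1, stood at 583 CPM in effector memory, 897 in central memory and 483 in naive, and Spn, which encodes CD43, at 455, 671 and 546 CPM. Neither was called in any comparison. Cd44, a ligand of E-selectin when suitably glycosylated, was 38.2-fold higher in effector memory than in naive (interval 30.7 to 48.2), at 113, 45.8 and 2.95 CPM. Of 9 sialic acid-binding lectins 8 were in the table, and none reached 5 CPM in any library.

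Over all lists together, 137 glycan genes other than the 9 were in the table. In effector memory against naive 20 of 85 at 5 CPM were called higher and 15 lower (median log2 ratio -0.07), beside the 22.3% and 15.6% of all genes. Central memory had 7 of 79 higher and 5 lower than naive (median 0.06), and effector memory 14 of 85 higher and 12 lower than central memory (median -0.06). Of all genes, 11.2% were higher and 5.12% lower in central memory against naive, and 14.8% and 12.8% in effector memory against central memory.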

How the data were processed

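CD8+ T cells of 3 sorted subsets were sequenced, 1 library each. The deposited values are raw read counts per gene symbol. HISAT2 2.0.5, featureCounts 1.5.0-p3, CASAVA and the mm10 build are named in the submitters' processing notes. The sources used here name no annotation, strand setting or handling of multi-mapping reads. The columns TN, TCM and TEM were read as abbreviations of naive, central memory and effector memory.

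Counts were scaled to CPM with edgeR 4.0.16 TMM factors, run in R 4.3.3 (0.967 for effector memory, 0.999 for central memory and 1.04 for naive). Ratios had 95% exact conditional binomial intervals (SciPy 1.17.1), and a library at 0 counts entered ratios at 3 counts. No replicate test exists with 1 library per group. Levels per length used merged exons of GENCODE M21, where 98.7% of the gene names were found. The calling rule was also run on Poisson counts simulated for 25638 genes, with counting error as the only variation. For effector memory against naive, it picked up 100 of 100 genes given a 3-fold change. It likewise picked up 100 of 100 given a 6-fold change, and 0 of 9550 without a change. With no spread between replicates in the simulation, this outcome was close to fixed in advance. It cannot tell how far the calls would hold in replicates, and calls resting on low counts were not examined separately.

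The 9 genes, the gene lists and the alternatives were chosen with earlier results of these data known. Named from each list were up to 4 called genes per comparison with the largest differences, plus Selplg, Cd44 and Spn, and for each of the 9 genes the 3 with the nearest pattern; some genes the rule takes are not reported here. St3gal5, C1galt1, B4galt1, Papss1 and the neighbours on the opposite strand were chosen after their values were seen, as were the pairs of genes compared within a library. Alternatives were size factors of DESeq2 1.42.0, total counts, upper quartile scaling, a minimum of 1, 20 or no CPM, a ratio of 3 and ratios of CPM + 1.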

Additional observations from a re-analysis of the deposited data

How the results depend on the processing

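Under total counts, DESeq2 size factors and upper quartile factors the same genes of the 9 were called in each comparison and direction, as they were with ratios of CPM + 1. The other scalings moved the log2 ratios of all genes alike, by -0.12 to 0.08, and none of the 27 ratios of the 9 genes changed sign. B4galnt1 in central memory over naive came nearest, at a log2 ratio of 0.13, and 0.00 with upper quartile factors.

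A minimum of 20 CPM left 1 gene called higher (Chst2) and 1 called lower (St6gal1) in central memory against naive. A ratio of at least 3 left 1 called lower there (B4galnt4) and 1 called lower in effector memory against naive (St3gal1), so the calls of St6gal1 in central memory against naive and of B4galnt1 against naive depend on that limit. It also ended the call of St3gal4 in effector memory against naive, leaving 3 called higher, and that of B4galnt1 in effector memory against central memory, leaving 2 called lower. A minimum of 1 CPM or none added Gcnt1 in central memory against naive, for 3 called higher, and Chst2 in effector memory against naive, for 5 called higher. The Gcnt1 to St3gal1 ratio in effector memory was 0.953 without division by length, and that of St6gal1 to St3gal1 in naive 0.909.

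Among all genes, dropping the minimum gave 2020 called higher and 1540 lower in central memory against naive, 3566 and 2596 in effector memory against naive, and 2830 and 1980 in effector memory against central memory. A ratio of 3 gave 636 and 264, 1446 and 750, and 859 and 514. In central memory against naive a minimum of 20 CPM gave 544 and 286, and a minimum of 1 CPM gave 937 lower. The main counts were 1092 and 499, 2247 and 1576, and 1479 and 1273.

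No paired analysis was possible because each group has 1 library, and leaving out a library leaves no comparison. At this depth a count of 0 allows a level up to the 3-count floor of its library.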
